A study of Rattus norvegicus with 18 samples.

Results

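The comparison described here is that of day 9 cortical neurons treated with a CHD5 shRNA and day 9 neurons treated with a control shRNA. It rests on 6 of the 18 arrays of the study, 3 (replicates a, b and c) for each shRNA, chosen by their day and lentivirus labels. CHD5 is a chromodomain ATPase that remodels nucleosomes. It is found mainly in neurons, and belongs with CHD3 and CHD4 to the Mi2 group of the NuRD complexes, which join a remodeling ATPase to histone deacetylases and are known both to repress and to activate genes. The comparison asks which transcripts differ when CHD5 is targeted in neurons.

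The cells were primary cortical neurons from embryonic rats. Both groups received lentivirus for 6 hours on day 1, which carried either the CHD5 shRNA or a scramble shRNA from Addgene in pLKO.1, and RNA was harvested on day 9. The other arrays are the same pair of treatments harvested on days 5 and 12. Only 1 CHD5 shRNA virus was hybridised, so what CHD5 depletion does and what this hairpin does otherwise cannot be told apart. The labels do not say whether replicates a, b and c were separate cultures, so each p-value measures the spread between these samples, which may be technical. Of the 22523 probes 0 are annotated to Chd5, so the depletion itself cannot be checked on these arrays.

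Cultures of this kind are neuronal but hold other cells. Astrocytes buffer glutamate and potassium, secrete lipoproteins and are coupled by gap junctions. Oligodendrocyte precursors and a few fibroblasts of the meninges can be carried along from the dissected cortex. RNA was taken from the whole culture, so a transcript can be lower because its cells are fewer or because each holds less of it, and these cannot be told apart.

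Each value is the mean fluorescence of the beads of a probe. A probe was kept when its detection p-value was at most 0.02 on at least 1 of the 6 arrays, which left 10074 probes with 9812 gene symbols. Within an array the log2 signals were Z-transformed, and the scores were then brought back to log2 units with the SD averaged over the arrays, 1.78. A level of 0 is thus the mean of the array. Levels are compared between arrays for the same probe, never between probes. A probe was called when its adjusted p in limma was under 0.05.

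Control replicate b was a weak array. Its mean signal was 135, against 573 and 434 for control replicates a and c and 400 to 451 for the CHD5 shRNA arrays. It had 7047 probes detected, against 8360 to 9549 on the other 5 arrays. Its log2 signals correlated with those of the other 5 arrays by 0.929 to 0.955, whereas control replicates a and c correlated by 0.994 and the CHD5 shRNA arrays among themselves by 0.995 to 0.997. The SD of its log2 signals was 1.13, against 1.71 to 1.89, so the Z transformation stretches its range and its brightest probes come out very high. The probe of Tuba1a, an alpha tubulin, had control levels of 5.67, 11.08 and 6.40 in replicates a, b and c. Counts and calls at day 9 are therefore given with all 18 arrays and without this array, as are the differences of most genes described.

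With all 18 arrays, limma called 281 probes lower (2.79% of those tested) and 423 higher (4.20%) in the CHD5 shRNA neurons, so that 39.9% of the calls were lower. Without control replicate b it called 736 lower (7.31%) and 481 higher (4.77%), and 60.5% were lower. In both fits 252 probes were lower (2.50%) and 320 higher (3.18%), and 0 were called in opposite directions. These 572 probes make up 81.3% of the calls with all arrays and 47.0% of the calls without replicate b. Their median differences were -0.57 for the lower and 0.52 for the higher probes, and -0.64 and 0.44 without replicate b, beside a median of -0.01 and 0.03 over all probes. The falls held more large differences than the rises, since 18 of the lower and 4 of the higher probes differed by at least 2-fold. On 563 of the 572 probes the 3 CHD5 shRNA arrays did not overlap with the 3 control arrays, which was so on 2250 of all probes tested (22.3%). The calls rest on the same arrays, so this is not separate evidence. The number of calls depended on single arrays. It was 1536 without control replicate a, 259 without CHD5 shRNA replicate a and 141 without CHD5 shRNA replicate c, and 85 lower and 51 higher probes were called whichever of the 6 arrays was left out. With the 6 arrays of day 9 alone 0 were called by limma (1186 had an unadjusted p under 0.05), and without control replicate b 1936 were.

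**Figure D1:**
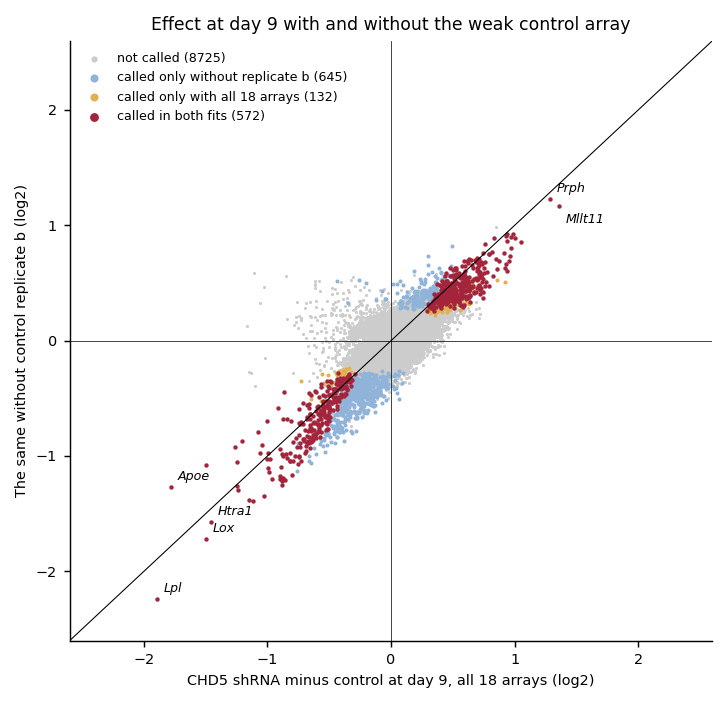
Difference between CHD5 shRNA and control neurons at day 9 for each of the 10074 probes kept, in log2 units, with all 18 arrays (x axis) and without control replicate b (y axis). The 572 probes called in both fits (dark red) lie along the diagonal on either side of 0, and the 645 called only without replicate b (blue) lie mostly below 0.

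The named genes are the 15 largest falls and the 15 largest rises among genes called in both fits, detected on every array of the group with the higher level, where the 3 arrays of each group did not overlap. Of the genes that met this rule 178 were lower and 318 higher, from 252 probes lower and 320 higher in both fits. A fall had to be detected on all 3 control arrays, the weak replicate b included, and a rise on the CHD5 shRNA arrays. The rule is thus stricter for falls, and its counts do not compare the directions. Each is measured by a probe of 50 bases. The first 30 bases of the probe of 6 of them are given, since the probe is what a signal stands for. Lpl, Apoe and Gfap are among the falls, and Mllt11, Prph and Uchl1 are among the rises.
Lpl: cgctgttgtggctatctggggtgtagattt
Apoe: gtggaagacatgcagcgccagtgggcaaac
Gfap: gtgtaccctctcggaagctggttggtgggc
Mllt11: ggcgaccccctccttgagtatagcaccttc
Prph: cagcccgatcctgaggctggacctctccct
Uchl1: tctctgcaaagcagcctaagtagggagaga

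The largest fall was that of Lpl, lipoprotein lipase, which releases fatty acids from lipoproteins. Its levels were 2.36, 1.45 and 2.32 in control replicates a, b and c and 0.19, 0.40 and -0.16 in CHD5 shRNA replicates a, b and c. Every CHD5 shRNA array lay below every control array, as the rule required, and the lowest control array was the weak replicate b. Lpl fell by 1.90 ± 0.19 (log2 difference ± SE, n = 3 arrays a group, limma adjusted p = 2.95e-05), or 3.72-fold. Without control replicate b it fell by 2.24 ± 0.13 (limma adjusted p = 4.14e-09), or 4.72-fold.

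Apoe, the main lipoprotein component that astrocytes secrete, was the second in size. Its levels were 3.56, 5.36 and 3.92 in the controls and 2.72, 2.63 and 2.13 in the CHD5 shRNA arrays. The groups did not overlap, again by the rule, and control replicate b was the highest array by far. Apoe fell by 1.78 ± 0.30 with all arrays (limma adjusted p = 0.00215) and by 1.27 ± 0.17 without replicate b (limma adjusted p = 7.33e-05), 3.44-fold and 2.41-fold. Ndrg2, a growth-regulating gene of astrocytes, had control levels of 3.72, 5.19 and 3.98 and CHD5 shRNA levels of 3.01, 2.98 and 2.40. It fell by 1.5 ± 0.25, and by 1.08 ± 0.14 without replicate b, so both genes fell less when the weak array was left out.

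Lox, lysyl oxidase, which cross-links collagen and elastin, had control levels of 0.47, -0.13 and 0.37 and CHD5 shRNA levels of -0.97, -1.37 and -1.45. It fell by 1.5 ± 0.19 (limma adjusted p = 0.000378), and by 1.72 ± 0.18 without replicate b. Htra1, a secreted serine protease, had control levels of 1.48, 1.38 and 1.78 and CHD5 shRNA levels of 0.13, 0.27 and -0.15. It fell by 1.46 ± 0.11 (limma adjusted p = 1.15e-06), 2.75-fold, and by 1.58 ± 0.11 without replicate b. Its control arrays, replicate b included, lay close together.

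Gja1, the gap junction protein connexin 43, had control levels of 4.42, 5.57 and 4.56 and CHD5 shRNA levels of 3.70, 3.77 and 3.28. Gfap, the intermediate filament of astrocytes, had control levels of 1.77, 1.63 and 1.67, close to each other. Its CHD5 shRNA levels were 1.21, 0.28 and -0.14, so that replicate a lay nearer to the controls than to replicate c. Gja1 fell by 1.26 ± 0.21 and Gfap by 1.24 ± 0.22, and without replicate b they fell by 0.92 ± 0.13 and 1.30 ± 0.24 (limma adjusted p = 0.00013 and 0.00123).

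Other genes among the 15 largest falls were Tmem263 (array name RGD1563325_predicted), Pcp4, Aldoc, Pip4p2 (array name Tmem55a), Igfbp2, B2m and Mlc1. Tmem263 had the tightest groups, with control levels of 3.14, 3.24 and 3.28 and CHD5 shRNA levels of 2.0, 2.11 and 1.83, and fell by 1.25 ± 0.10 (limma adjusted p = 1.15e-06) and by 1.26 without replicate b. Pcp4, a calmodulin-binding peptide of neurons, fell by 1.24 and, without replicate b, by 1.05. Aldoc, the aldolase typical of astrocytes, fell by 1.21 and 0.87 in these fits, and Pip4p2 fell by 1.12 and 1.39. Igfbp2, which binds insulin-like growth factors, fell by 1.08 and 0.79. B2m, the light chain of the class I histocompatibility molecules, fell by 1.06 and 0.97, and Mlc1, a membrane protein of astrocyte endfeet, fell by 1.05 and 0.91. All 15 are lower in both fits by the rule that chose them. Their median was -1.26 without control replicate b, beside -1.24 with all arrays.

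**Figure D2:**
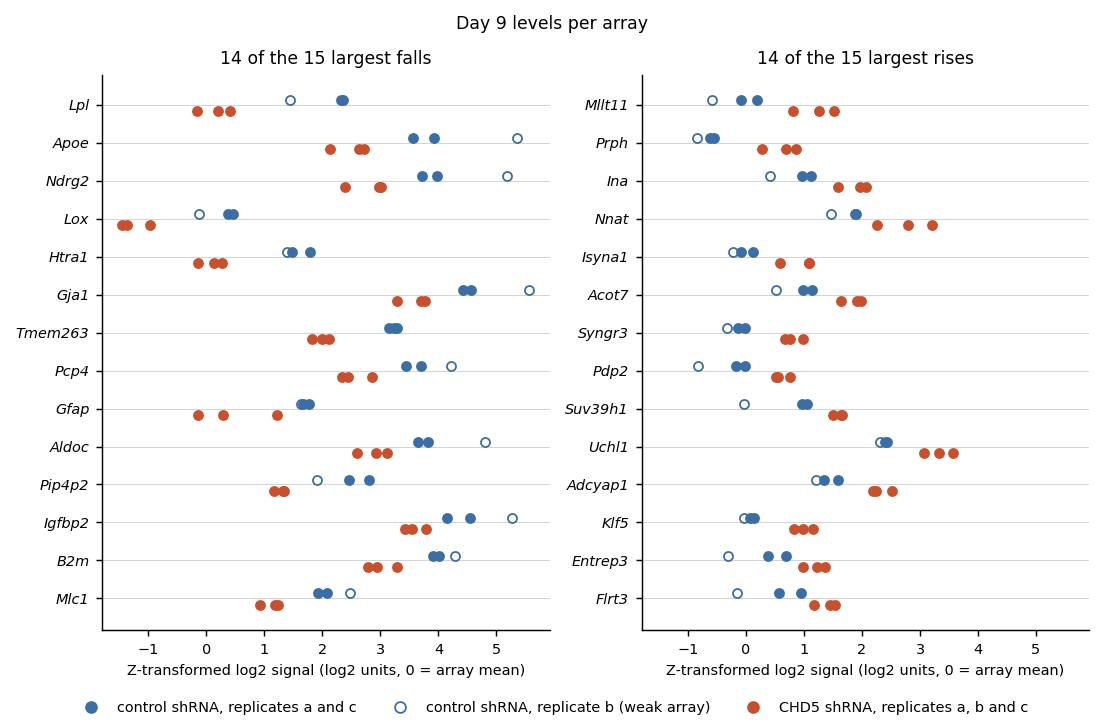
Levels of 14 of the 15 largest falls and 14 of the 15 largest rises on each of the 6 arrays of day 9 (Z-transformed log2 signal in log2 units, where 0 is the mean of the array). Each circle is an array, blue for control and red for CHD5 shRNA, and the open circle is control replicate b. The red circles lie below all blue circles in the left panel and above them in the right panel, by the rule that chose the genes, and the open circle often lies apart from the filled blue ones.

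Astrocyte markers were the list with the most falls. Of 24 genes listed 20 had a probe kept, 14 of these fell in both fits, 0 rose, and all 20 differences were below 0. Over all 9812 genes 2.57% fell and 3.23% rose in both fits, the background for the count of every list. The median difference of the list was -0.83, and -0.80 without control replicate b, beside -0.01 and 0.03 over all genes, and the differences ranged from -1.78 to -0.09. The 14 genes cover different tasks of the cell. Apoe, Clu (clusterin) and Agt (angiotensinogen) are secreted, Gja1 and Cldn10 form junctions, Aqp4 is the water channel and Slc4a4 carries bicarbonate. Fgfr3 is a growth factor receptor, Acsbg1 activates fatty acids, S100b binds calcium, and the others are Gfap, Aldoc, Mlc1 and Ndrg2. Agt, for example, had control levels of 0.13, -0.56 and -0.01 and CHD5 shRNA levels of -0.94, -1.02 and -1.39, and fell by 0.97 (limma adjusted p = 0.00121) and by 1.2 without replicate b. Acsbg1 fell by 1.01, S100b by 0.84, Aqp4 by 0.82, Cldn10 by 0.79, Slc4a4 by 0.65, Fgfr3 by 0.57 and Clu by 0.50. In the fit without replicate b Acsbg1 fell by 1.02, S100b by 0.68, Aqp4 by 0.97, Cldn10 by 1.04, Slc4a4 by 0.73, Fgfr3 by 0.60 and Clu by 0.62. Of the 14, 10 were called whichever of the 6 arrays was left out. The exceptions were Slc4a4, Fgfr3 and Clu without CHD5 shRNA replicate a, these and Cldn10 without CHD5 shRNA replicate c, and Clu also without control replicate c or a or CHD5 shRNA replicate b. With median centring in place of the Z transformation 7 of the 20 were called lower, and without the detection filter 9 were.

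Not every astrocyte gene was called. Slc1a3, the glutamate transporter GLAST, had control levels of 4.64, 7.55 and 5.14 and CHD5 shRNA levels of 4.52, 4.83 and 4.54. Its difference of -1.15 (limma adjusted p = 0.125) rested on control replicate b, and without that array it was -0.27 (limma adjusted p = 0.184). Slc1a2, the glutamate transporter GLT-1, had a difference of -0.24 and was detected on 2 arrays of each group. Sox9, a transcription factor of astrocytes and their precursors, had a difference of -0.09, and of 0.08 without replicate b.

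Markers of other cells bear on what the cultures held. Of the 13 pan-neuronal genes measured 10 were detected on all 3 control arrays. The mean level of the 13 was 1.33, 1.81 and 1.43 in control replicates a, b and c and 1.69, 1.70 and 1.73 in the CHD5 shRNA arrays, so the groups overlapped through replicate b. The mean of the 20 astrocyte markers was 1.22, 1.58 and 1.25 in the controls and 0.66, 0.60 and 0.33 in the CHD5 shRNA arrays, without overlap. The 11 oligodendrocyte lineage markers had means of 0.19, 0.26 and 0.19 against -0.17, -0.01 and -0.14. The 7 fibroblast markers had means of -1.27, -1.15 and -1.34 against -1.57, -1.65 and -1.88. Of these 7, 4 were detected on all 3 control arrays and 3 on 0 CHD5 shRNA arrays, so part of the list lies near the detection limit. A gene could be kept through control arrays alone, and what this adds to the lower mean was not tested. The astrocyte, oligodendrocyte lineage and fibroblast lists were all lower in the CHD5 shRNA arrays without overlap. They moved with the other falls described here, and their part in them was not tested.

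**Figure D3:**
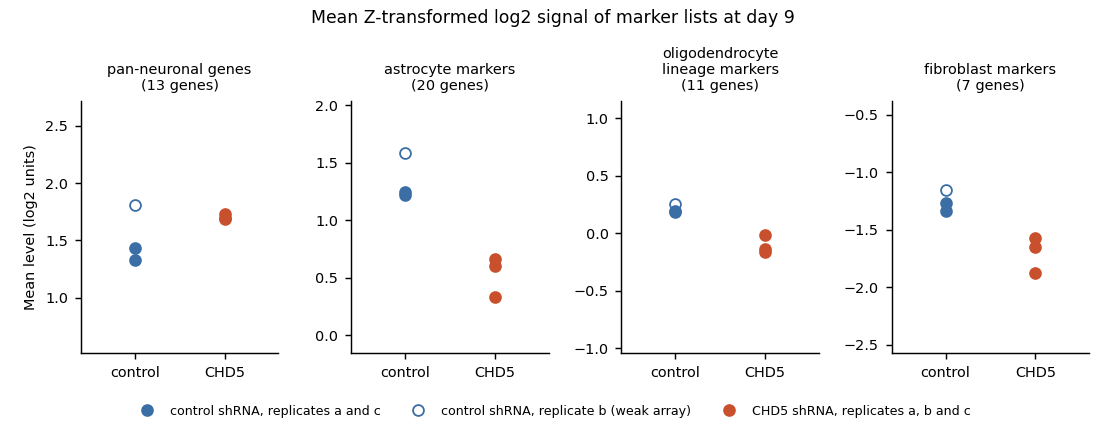
Mean level of 4 lists of cell type markers on each array of day 9 (Z-transformed log2 signal in log2 units, same span on every y axis). Each circle is an array, and the open circle is control replicate b. The astrocyte, oligodendrocyte lineage and fibroblast means are lower on all 3 CHD5 shRNA arrays, and the pan-neuronal mean of those arrays lies between control replicates a and c and control replicate b.

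Of the 11 oligodendrocyte lineage genes measured, 4 fell in both fits, and without control replicate b 5 were lower and 1 higher. Cnp, a myelin enzyme, fell by 0.59 and, without replicate b, by 0.77. Bcas1, a gene of oligodendrocytes that start to myelinate, fell by 0.50 and 0.58. Enpp6 was called lower but was detected on 1 control array and on 0 CHD5 shRNA arrays, so no size is given for it. The lineage regulators were not called. Olig1 had a difference of -0.50 with all arrays and -0.01 without control replicate b, and Olig2 had -0.12 and -0.01. The list's count was 2 lower without control replicate c, CHD5 shRNA replicate a or CHD5 shRNA replicate c, and 6 without control replicate a. Of the 7 fibroblast genes measured, 3 fell in both fits, and 1 did without CHD5 shRNA replicate c. These were Col1a2, a chain of collagen I, by 0.99 (limma adjusted p = 0.0257, and 1.14 without replicate b), Fbln2 (fibulin 2) by 0.55 (0.56) and Dcn (decorin), which was detected on 2 control arrays and on 0 CHD5 shRNA arrays and was at least 1.25-fold lower. Of the microglia markers only Cd68 was kept, with a difference of -0.17 (limma adjusted p = 0.544), and of the endothelial and pericyte markers only Cldn5, with a difference of -0.03 (limma adjusted p = 0.895).

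Genes of the extracellular matrix and its proteases also held many falls. Of 29 listed 21 were measured, 8 fell in both fits and 1 rose, 19 of the differences were below 0 and the median was -0.29, and -0.35 without control replicate b. Beside Lox and Htra1 the falls were Sparcl1, a secreted synapse-promoting protein of astrocytes, Serpine2, an inhibitor of serine proteases, and Lamb2, a laminin chain, with Spock2, Timp1 and Loxl1. Sparcl1 had control levels of 4.51, 5.65 and 4.70 and CHD5 shRNA levels of 4.04, 4.25 and 3.81, and fell by 0.92 with all arrays and by 0.58 without replicate b. Serpine2 fell by 0.77, Lamb2 by 0.66, Spock2 by 0.53 and Timp1 by 0.51, and in the other fit they fell by 0.84, 0.59, 0.72 and 0.72. Loxl1 was detected on 2 control arrays and on 0 CHD5 shRNA arrays and was at least 1.13-fold lower. Timp2, an inhibitor of metalloproteinases as Timp1 is, rose by 0.59 (limma adjusted p = 0.041) and by 0.55 without replicate b (0.0498). The calls of Lox, Htra1, Lamb2 and Serpine2 held whichever of the 6 arrays was left out. The list's count was 5 lower without CHD5 shRNA replicate a, 4 without CHD5 shRNA replicate c and 2 with median centring.

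Of the 20 genes of lipoproteins and fatty acid handling measured, 6 fell in both fits and 0 rose, with a median of -0.24, and -0.37 without control replicate b. These were Lpl, Apoe, Clu, Acsbg1, Cpt1a and Abca1. Cpt1a, which brings long-chain fatty acids into mitochondria, had control levels of 0.23, -0.52 and -0.15 and CHD5 shRNA levels of -1.07, -0.96 and -1.07. The groups did not overlap, and Cpt1a fell by 0.89 (limma adjusted p = 0.0024) and by 1.1 without replicate b. Abca1, which exports cholesterol, was detected on 2 control arrays and on 0 CHD5 shRNA arrays and was at least 1.11-fold lower. Clu, Apoe and Acsbg1 are also in the astrocyte list, and of the other 17 genes 3 fell in both fits. Leaving out control replicate b gave 11 lower, and the count was 4 without control replicate c, CHD5 shRNA replicate a or CHD5 shRNA replicate c.

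Among the rises the largest was that of Mllt11, a small nuclear protein known for its abundance in developing neurons. Its levels were 0.20, -0.59 and -0.08 in control replicates a, b and c and 1.26, 0.81 and 1.51 in the CHD5 shRNA arrays. It rose 2.56-fold with an SE of 0.25 in log2 units (limma adjusted p = 0.00424), and 2.24-fold without control replicate b (limma adjusted p = 0.00461). Prph (array name Prph1) encodes peripherin, an intermediate filament of peripheral neurons and of neurons that regrow axons. Its levels were -0.56, -0.84 and -0.62 in the controls and 0.69, 0.28 and 0.86 in the CHD5 shRNA arrays, and it rose by 1.28 ± 0.14 (limma adjusted p = 7.9e-05), 2.44-fold, and by 1.23 ± 0.14 without replicate b. Ina (array name Inexa), the filament protein alpha-internexin, had control levels of 1.11, 0.41 and 0.96 and CHD5 shRNA levels of 1.97, 1.59 and 2.07. It rose by 1.05 ± 0.18 (limma adjusted p = 0.00255), and by 0.86 without replicate b.

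The light and medium neurofilament chains were not called, with differences of 0.13 for Nefl and 0.07 for Nefm. Of the 8 intermediate filament genes measured 2 rose in both fits, Prph and Ina, and 2 fell, Gfap and Vim. Vim, the vimentin of glia, precursors and fibroblasts, had control levels of 2.17, 2.44 and 2.49 and CHD5 shRNA levels of 1.54, 1.78 and 1.59, and fell by 0.73 (limma adjusted p = 0.016) and by 0.71 without replicate b. Its call was lost without control replicate c or CHD5 shRNA replicate a or c.

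Nnat, the imprinted membrane proteolipid neuronatin, rose by 1.00 ± 0.24 (limma adjusted p = 0.0186) and by 0.89 ± 0.25 without replicate b. It was no longer called when CHD5 shRNA replicate a or c was left out, with neqc and with median centring. Uchl1, a ubiquitin hydrolase of neurons, had control levels of 2.40, 2.32 and 2.44 and CHD5 shRNA levels of 3.32, 3.06 and 3.58. The controls were nearly level, replicate b included, and Uchl1 rose by 0.94 ± 0.14 (limma adjusted p = 0.000763) with all arrays and by 0.92 ± 0.15 without replicate b. Adcyap1, the neuropeptide PACAP, had control levels of 1.59, 1.20 and 1.35 and CHD5 shRNA levels of 2.24, 2.18 and 2.52, and rose by 0.94 ± 0.12 (limma adjusted p = 0.000294) and by 0.86 without replicate b. Syngr3, a synaptic vesicle protein, rose by 0.97 (0.90 without replicate b) and Flrt3, an adhesion protein of axons, by 0.92 (0.63). The call of Flrt3 was lost without CHD5 shRNA replicate c.

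Metabolic and nuclear genes made up most of the others. Isyna1, which makes inositol, rose by 0.99 (0.93 without replicate b), Acot7, an acyl-CoA thioesterase of neurons, by 0.97 (0.80), and Pdp2, which activates pyruvate dehydrogenase, by 0.96 (0.73). Suv39h1, a histone H3 lysine methyltransferase of heterochromatin, had control levels of 0.97, -0.04 and 1.06 and CHD5 shRNA levels of 1.66, 1.51 and 1.64. Control replicate b lay far below the other controls, and Suv39h1 rose by 0.94 ± 0.19 with all arrays and by 0.60 ± 0.09 without it (limma adjusted p = 0.00716 and 0.000337). Klf5, a transcription factor, rose by 0.93 (0.91 without replicate b) and Entrep3 (array name RGD1306107_predicted) likewise by 0.93 (0.66). All 15 genes are higher in both fits by the rule that chose them. Their median was 0.86 without control replicate b, beside 0.96 with all arrays.

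Most other genes of neurons did not pass the test. Of the 13 pan-neuronal genes measured 3 rose in both fits, 0 fell, and the median was 0.17, and 0.27 without control replicate b. These were Uchl1, Tubb3, the tubulin chain of neurons, which rose by 0.55 (limma adjusted p = 0.0142), and the surface protein Thy1, which rose by 0.60 (limma adjusted p = 0.00286). Snap25, a membrane fusion protein of the synapse, had a difference of 0.49 (limma adjusted p = 0.119), Map2 of 0.23 and Syt1 of -0.03. The count of the list was 2 without CHD5 shRNA replicate a or c.

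Among genes of transmitter release, 2 of 20 rose in both fits, among them Stx1a (syntaxin 1A, by 0.45, limma adjusted p = 0.03), and 0 fell. With all arrays 5 were called, all higher. Leaving out control replicate c gave 1 lower and 1 higher, CHD5 shRNA replicate a 1 higher, CHD5 shRNA replicate c 0, and control replicate a 1 lower and 6 higher. Of 22 genes of tubulins, motors and microtubules, 3 rose in both fits, Tubb3, Kif5a (by 0.48) and Kif5c (by 0.40), both heavy chains of kinesin. With all arrays 4 of this list were called, 1 without control replicate c and 0 without CHD5 shRNA replicate a or c. Of 15 neural adhesion genes 2 rose, L1cam by 0.52 and Ncam1 by 0.45, and both calls were lost without control replicate c or CHD5 shRNA replicate a or c.

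Over all genes 2.57% were lower and 3.23% higher in both fits, the background for lists of channels and receptors as for every list. Of the 8 ionotropic glutamate receptor genes measured 1 rose in both fits, Grin1, the shared subunit of NMDA receptors, with control levels of 0.87, 0.32 and 0.63 and CHD5 shRNA levels of 1.21, 0.95 and 1.22. It rose by 0.52 (limma adjusted p = 0.014), and was no longer called when CHD5 shRNA replicate a or c was left out. Of the 18 sodium and calcium channel genes 1 rose, Cacnb3, a calcium channel beta subunit, by 0.63. Of the 13 potassium channel genes 1 fell, Kcnip2, by 0.39, and of the 8 GABA-A receptor genes 0 were called in both fits. The calls of Cacnb3 and Kcnip2 were also lost without CHD5 shRNA replicate a or c.

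Genes that tell classes of neurons apart came next. Of the 12 excitatory neuron genes 1 rose in both fits, Slc17a6 (the vesicular glutamate transporter VGLUT2, by 0.57 and by 0.31 without control replicate b), and the list had 0 calls without CHD5 shRNA replicate a or c and 4 without control replicate a. Of the 15 interneuron genes 1 fell in both fits, the neuropeptide gene Npy, with control levels of 3.46, 3.86 and 3.45 and CHD5 shRNA levels of 2.86, 2.92 and 2.95. Npy fell by 0.68 (limma adjusted p = 0.00247) and was called whichever array was left out. Vip, another peptide of interneurons, had a difference of -0.65 (limma adjusted p = 0.185), and without replicate b it was -1.06 (limma adjusted p = 0.00555). Dlx1, an interneuron transcription factor, had -0.46 (limma adjusted p = 0.127) and, without replicate b, -0.74 (limma adjusted p = 0.00153). Without replicate b 4 genes of the interneuron list were called lower. Of the 17 genes of neuropeptides and granins 1 fell in both fits, Npy, and 1 rose, Adcyap1, and without control replicate b 3 were called lower and 2 higher.

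Sterol synthesis was the list with the most rises. Of 21 genes listed 18 were measured, 7 rose in both fits and 0 fell, beside 3.23% and 2.57% of all genes, and 15 differences were above 0. The median was 0.35, and 0.30 without control replicate b. The genes are spread over the pathway, from Pmvk and Mvd, which turn mevalonate into isoprene units, through Sqle, squalene epoxidase, to Tm7sf2, Nsdhl and Dhcr7, which work on the sterol itself. Dhcr7, which makes cholesterol from its direct precursor, had control levels of 2.33, 1.67 and 2.20 and CHD5 shRNA levels of 2.83, 2.77 and 2.94. The groups did not overlap, and Dhcr7 rose by 0.78 ± 0.13 (limma adjusted p = 0.00198) and by 0.59 ± 0.09 without replicate b (limma adjusted p = 0.000314). Pmvk rose by 0.74, Mvd by 0.71, Tm7sf2 by 0.67, Nsdhl by 0.63 and Sqle by 0.32. Hmgcs1, an early enzyme of the pathway, was not called. It had control levels of 5.59, 9.10 and 6.06 and CHD5 shRNA levels of 6.12, 6.42 and 6.43, and its difference turned from -0.59 with all arrays to 0.52 without replicate b (limma adjusted p = 0.559 and 0.0744). The list's count was 5 without CHD5 shRNA replicate a, 6 without CHD5 shRNA replicate b and 2 without CHD5 shRNA replicate c, and the 2 calls that held whichever array was left out were Dhcr7 and Tm7sf2. It was 1 with median centring and 5 without the detection filter.

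The CCAAT box, bound by the factor NF-Y, is known from promoters of sterol synthesis genes, and was searched for on both strands. Promoters were taken from RefSeq (build GRCr8) as the 250 bases before each start. Of the 18 sterol genes 13 had a promoter in the table, and 11 of these (84.62%) held CCAAT, beside 37.17% of the 7194 tested genes with a promoter and 36.13% of the 27457 genes of the table. Among genes called in both fits 37.5% of the lower and 35.25% of the higher ones with a promoter held it. The difference was not tested, and neither Dhcr7 nor Cyp51 of the sterol list held these letters. Hmgcs1, Idi1, Fdps, Msmo1, Ebp, Sc5d and Srebf2 held them and were not called with all 18 arrays. The promoters of Nsdhl and Mvd are shown as genes of the list that rose, with CCAAT, or ATTGG where it lies on the other strand, in capitals. Nsdhl is on the plus strand at chrX:155817110-155817359 with 5 matches, and Mvd on the minus strand at chr19:67414975-67415224 with 1 match.
Nsdhl: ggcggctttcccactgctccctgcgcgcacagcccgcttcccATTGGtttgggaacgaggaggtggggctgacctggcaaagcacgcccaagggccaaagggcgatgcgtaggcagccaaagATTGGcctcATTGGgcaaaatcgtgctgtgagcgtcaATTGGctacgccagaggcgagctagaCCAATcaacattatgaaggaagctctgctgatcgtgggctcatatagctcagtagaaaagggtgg
Mvd: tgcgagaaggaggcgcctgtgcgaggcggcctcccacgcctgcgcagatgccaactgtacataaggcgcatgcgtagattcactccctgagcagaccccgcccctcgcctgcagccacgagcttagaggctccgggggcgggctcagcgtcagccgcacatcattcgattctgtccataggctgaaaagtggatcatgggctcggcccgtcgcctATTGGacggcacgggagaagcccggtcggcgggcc

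**Figure D4:**
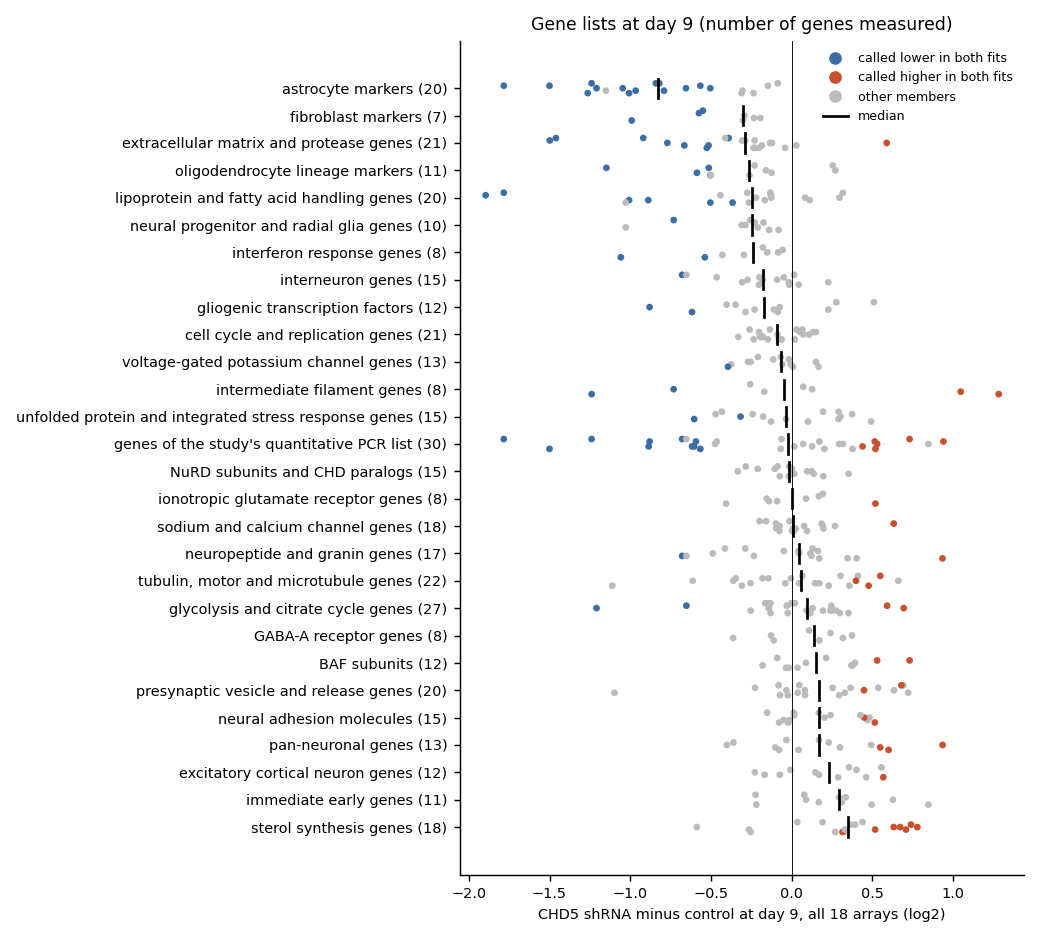
Difference between CHD5 shRNA and control neurons at day 9 (log2, all 18 arrays) for each measured gene of 28 lists, ordered by the median of the list (black bar). Each point is a gene, blue or red where it was called lower or higher in both fits and grey otherwise, and the number of genes measured follows each name. The astrocyte list lies wholly below 0 with a median of -0.83, and the sterol synthesis list has the highest median, 0.35.

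Of 12 transcription factors known to promote glial fate, 2 fell in both fits, Nfia and Id2. Nfia, nuclear factor I A, which switches precursors to making astrocytes, had control levels of 2.32, 1.22 and 2.21 and CHD5 shRNA levels of 1.00, 1.27 and 0.84. The groups overlapped only through control replicate b, and Nfia fell by 0.88 ± 0.21 (limma adjusted p = 0.0181) and by 1.26 ± 0.14 without it (limma adjusted p = 1.88e-05). Id2, an inhibitor of helix-loop-helix factors, fell by 0.62 with all arrays and by 0.43 without replicate b. Both calls were lost without CHD5 shRNA replicate a or c, and that of Nfia also without control replicate c. Nfib had a difference of -0.40 and Nfix of 0.51 (limma adjusted p = 0.0669), and neither was called with all arrays. Of the 10 genes of progenitors and radial glia 1 fell in both fits, Vim, and all 10 differences were below 0. Leaving out control replicate b gave 4 called lower, and leaving out control replicate c or CHD5 shRNA replicate a or c gave 0.

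Nuclear factor I proteins bind the letters TTGGC. These letters, on either strand, lay in the promoter window of 107 of the 184 genes called lower in both fits that had a promoter (58.15%), and of 114 of the 244 called higher (46.72%). They lay in 45.34% of the tested genes with a promoter and in 10 of 17 astrocyte markers (58.82%). Of the markers that fell, S100b, Slc4a4, Mlc1, Acsbg1, Apoe, Ndrg2 and Fgfr3 held the letters, and Gfap, Aqp4, Gja1, Aldoc and Cldn10 did not. Slc1a2 and Slc1a3 were among the holders that were not called. A promoter that holds ATTGGC counts for both motifs, and 11 of the 13 sterol promoters (84.62%) held TTGGC as well. The difference between these shares was not tested. The promoter of Slc4a4, an astrocyte marker that fell, on the minus strand at chr14:19468283-19468532, is shown as an example with 2 matches, with GCCAA, the other strand of TTGGC, in capitals.
Slc4a4: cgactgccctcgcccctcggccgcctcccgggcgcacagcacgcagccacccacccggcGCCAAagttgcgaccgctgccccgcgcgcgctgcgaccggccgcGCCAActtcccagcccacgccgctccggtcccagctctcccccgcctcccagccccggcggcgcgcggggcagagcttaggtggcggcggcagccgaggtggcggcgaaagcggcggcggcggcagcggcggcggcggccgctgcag

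Of the 15 NuRD subunits and CHD family genes measured 0 were called in both fits. Chd4 had a difference of -0.33 (limma adjusted p = 0.118) and Chd3 of 0.02 (limma adjusted p = 0.948), and Gatad2a, a p66 subunit, was higher by 0.35 with all arrays only (limma adjusted p = 0.0417, and 0.0634 without control replicate b). Of the 12 subunits of the SWI/SNF-type BAF complexes 2 rose in both fits. Dpf1, the neuronal subunit BAF45b, had control levels of 1.09, 0.27 and 0.84 and CHD5 shRNA levels of 1.63, 1.17 and 1.60, and rose by 0.73 ± 0.16 (limma adjusted p = 0.0126). Smarcd1, the subunit BAF60a, rose by 0.53 (limma adjusted p = 0.0397). Actl6b, the neuronal subunit BAF53b, had a difference of 0.38 (limma adjusted p = 0.104). The calls of Dpf1 and Smarcd1 were lost without CHD5 shRNA replicate a or c, and that of Smarcd1 also without control replicate c or CHD5 shRNA replicate b. Without control replicate a 4 BAF genes were called higher, and without control replicate b 2 were called lower beside the 2 that rose.

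The other lists held 0 to 4 genes called in both fits, beside 2.57% lower and 3.23% higher over all genes. Of 21 cell cycle genes 0 were called, with a median of -0.09. Of 8 interferon response genes 2 fell, B2m and Psmb8, a subunit of the immunoproteasome, which was detected on 2 control arrays and on 0 CHD5 shRNA arrays and was at least 1.14-fold lower. Of 15 stress response genes 2 fell, Ddit4 by 0.60 and Atf5 by 0.32, and the list had 0 lower without CHD5 shRNA replicate a or c. Of 27 genes of glycolysis and the citrate cycle, 2 fell (Aldoc, and Ldhb by 0.65) and 2 rose (Pkm by 0.70 and Cs by 0.59). Of 11 immediate early genes 0 were called in both fits. Fos, the best known of these, had control levels of -1.50, -1.16 and -1.53 and CHD5 shRNA levels of -0.65, -0.49 and -0.50, without overlap. Its difference was 0.85 ± 0.32 (limma adjusted p = 0.123), and 0.99 without replicate b (limma adjusted p = 0.0671). Single arrays moved these counts too. Without control replicate a, 3 cell cycle genes were lower, 3 stress genes lower and 2 higher, and 3 glycolysis and citrate cycle genes lower and 4 higher. Leaving out control replicate b gave 2 cell cycle and 4 interferon genes lower. Without CHD5 shRNA replicate a or c, 1 interferon gene was lower, and 1 glycolysis or citrate cycle gene was lower and 1 higher.

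The list of genes followed up by quantitative PCR in the study was chosen with these samples at hand, so its count is not independent evidence of a direction. Of this list 30 genes had a probe kept, of which 10 fell and 6 rose in both fits. The falls were Ndrg2, Apoe, Gfap, Nfia, Add3, Npy, Id2, Ddit4, Ampd3 and Fgfr3, and the rises were Suv39h1, Dpf1, Smarcd1, Grin1, L1cam and Satb1. Of the 10 falls, Add3, an adducin of the membrane skeleton, fell by 0.89 (limma adjusted p = 0.00322), and Ampd3, which deaminates AMP, by 0.59. Satb1, a chromatin organiser, rose by 0.44 (limma adjusted p = 0.0116). Without CHD5 shRNA replicate a 6 were called lower and 1 higher, and without CHD5 shRNA replicate c 5 and 1.

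The same probes were compared with days 5 and 12, whose arrays are separate from those of day 9. With all 18 arrays limma called 28 probes (0.278%) at day 5 and 636 (6.31%) at day 12. The spread is shared between days, so leaving out day 9 control replicate b changed the day 5 count too. It was then 164 (1.63%), 114 lower and 50 higher, and 72 (0.715%) without replicate b of either day's controls. The count of 28 rested in part on day 5 control replicate b, without which 6 probes (0.0596%) were called, all 6 of them lower. In signal, detection and correlation with the other day 5 arrays this array lay within their range, but limma's array weights, in a fit that stopped before it converged, gave it the lowest weight of the 18. Of the 572 probes called at day 9 in both fits, 19 were called at day 5 in the same direction with all 18 arrays. This number was 65 without day 9 control replicate b, 6 without day 5 control replicate b and 36 without both. At day 12, with all 18 arrays, 322 were called in the same direction and 0 in the opposite one. The sign was that of day 9 on 480 of the 572 at day 5 and on 564 at day 12. How many of all kept probes share their sign between days was not counted. The median difference of the lower probes was -0.21 at day 5 and -0.59 at day 12, beside -0.57 at day 9. That of the higher probes was 0.13, 0.40 and 0.52 on days 5, 12 and 9. The 572 probes were chosen by their day 9 values, which by itself can make the other days look smaller.

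The 15 largest falls and rises were chosen for their size at day 9, so smaller medians on other days can come from that choice. Of the 15 largest falls 4 were called at day 5, Lpl (by 1.32), Lox (by 1.62), Htra1 (by 0.57) and Tmem263 (by 0.63). Htra1 was not called there without day 5 control replicate b (limma adjusted p = 0.111). At day 12, 12 of the 15 were called, and their medians were -0.57 at day 5 and -0.87 at day 12, beside -1.24 at day 9. Lox, Gfap and Apoe were not called at day 12, with differences of -0.37, -0.43 and -0.98. Of the 15 largest rises 0 were called at day 5 and 8 at day 12, with medians of 0.18 and 0.63 beside 0.96 at day 9. Prph and Adcyap1 were higher at day 12 by 1.57 and 1.54, whereas Entrep3 (0.63), Suv39h1 (0.54), Ina (0.50), Mllt11 (0.38), Nnat (0.21), Flrt3 (0.20) and Klf5 (-0.01) were not called there.

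Whether the effect differed between days was tested in the same fit. With all 18 arrays the change from day 5 to day 9 was called by limma on 0 probes (0%), while 796 had an unadjusted p under 0.05 and the smallest adjusted p was 0.156. Without control replicate b it was called on 74 (0.735%, and 1439 had an unadjusted p under 0.05), of which 61 changes were below 0, with a lower difference at day 9 than at day 5, and 13 were above 0. Of the 74, 5 are astrocyte markers. Leaving out day 5 control replicate b as well gave 12 changes, 11 below 0 and 1 above it. The change from day 9 to day 12 was called on 0 probes (0%) with all arrays, where 259 had an unadjusted p under 0.05. Without control replicate b it was called on 1 (0.00993%), where 471 had an unadjusted p under 0.05. That 1 was Anxa1, annexin A1, named here after its values were seen, and it was not called when day 5 control replicate b was left out as well. Its difference was 0.20 at day 9 without replicate b and 1.30 at day 12 (limma adjusted p = 0.0410 for the change of 1.13 ± 0.18).

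**Figure D5:**
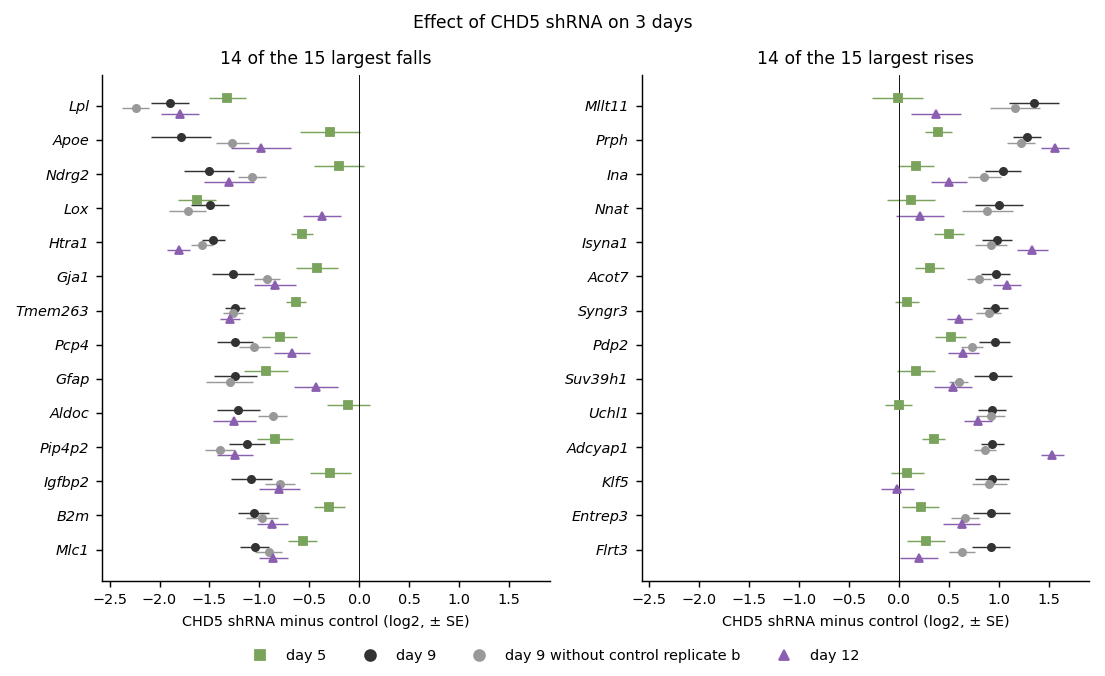
Difference between CHD5 shRNA and control neurons (log2, ± SE) for 14 of the 15 largest falls and 14 of the 15 largest rises of day 9, at day 5 (green squares), day 9 (black circles), day 9 without control replicate b (grey circles) and day 12 (violet triangles). The genes were chosen for their day 9 values. Most day 5 points of the rises lie near 0, with a median of 0.18 over all 15, whereas the 15 falls have a median of -0.57 at day 5.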

How the data were processed

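RNA was labelled with biotin, hybridised to Illumina RatRef-12 arrays and stained with streptavidin-Cy3. The authors read the signal intensities from the images with GenomeStudio (1.1.1 in the submitters' processing notes). Each is a mean over a probe's beads, exported with no normalization and no background correction, as the header of the file says. Beside it stands the deposited detection p-value, which sets the probe against negative control beads. Replicate a of each group was run a second time, for a reason not stated, and the second runs were used only in an alternative.

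First runs were used. Kept probes were taken to log2 and Z-transformed within each array, as in the study's methods, then rescaled by the average SD. R 4.3.3 and limma 3.58.1 (lmFit, eBayes) were fitted to the 6 groups of 3 arrays, with Benjamini-Hochberg adjustment over 10074 probes and a limit of 0.05. Sharing the spread among 6 groups gives more degrees of freedom than 3 arrays against 3, for which an exact permutation test, two-sided, cannot go below 0.1. The number of arrays limits the precision. The fit was tested on simulated data. Of a gene with several probes kept (240 genes), the brightest stands for it in lists, and in 24 of them at least 1 probe was called and in 0 probes were called in opposite directions. Where a probe was not detected on any array of the lower group, the fold is a bound against the dimmest detected probe.

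The samples, the lists and the rule for named genes were chosen with earlier results of these data known. The rule takes the 15 largest falls and rises with a gene symbol, called in both fits, not overlapping between the groups and detected on each array of the group with the higher level, and up to 4 members of each list with the largest difference, with members needed to say what a count holds. List members without a value were 54 genes with no annotated probe and 106 not detected on any of the 6 arrays. Symbols were updated from the array's names through RefSeq for 9037 of the kept probes. The alternatives were other normalizations, filters, weights, runs and blocks, and each array left out in turn. Chd5 and the slide of each array were not analysed here. Some genes that met the rules are counted in the totals but are not reported here by name.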

Additional observations from a re-analysis of the deposited data

Results flagged for a closer look

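The effect of CHD5 shRNA differed between days 9 and 5 on 8 of the genes named above in the fit without control replicate b. The named genes were chosen for large day 9 differences, which are part of this change, so the choice favours large changes among them. The test was limma's change of the difference, adjusted over all probes, and a value below 0 means a lower difference at day 9. The changes below 0 were those of Htra1 (-0.99, adjusted p = 0.00602), Lpl (-0.89, adjusted p = 0.0323), Ndrg2 (-0.87, adjusted p = 0.0358), Tmem263 (-0.62, adjusted p = 0.0404) and Apoe (-0.97, adjusted p = 0.0486). The changes above 0 were those of Syngr3 (0.82, adjusted p = 0.0328), Uchl1 (0.92, adjusted p = 0.0358) and Prph (0.82, adjusted p = 0.0486). With all 18 arrays none of the 8 was called by limma, with changes of the same sign and adjusted p-values from 0.156 (Htra1) to 0.623 (Lpl). When control replicate b of both days was left out, Htra1 (-0.95, limma adjusted p = 0.0224) and Syngr3 (0.91, 0.0333) were called, and the others kept their sign with adjusted p-values from 0.0530 (Lpl) to 0.0873 (Tmem263). With quantile normalization and all arrays 6 probes were called.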

How the results depend on the processing

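The share of lower calls moved with the scaling and with single arrays. It was 39.9% of 704 probes with all 18 arrays, 60.5% without control replicate b, 59.3% with median centring and 69.9% with median centring and no replicate b, and it was 61.0% when CHD5 shRNA replicate c was left out and 51.7% when replicate a of that group was. Leaving out each array in turn gave 141 to 1536 probes, 86 to 736 lower and 55 to 943 higher, and 0 to 74 changes between days 9 and 5 and 0 to 1 between days 12 and 9. Quantile normalization gave 1086 (533 lower, 553 higher), median centring 118 (70 lower, 48 higher), neqc 903 (428 lower) and no detection filter 307 (95 lower, 212 higher). Without control replicate b, quantile normalization gave 1514 (838 lower, 676 higher), median centring 931 (651 lower, 280 higher) and neqc 1354 (804 lower). The 6 arrays of day 9 alone gave 0 (0 lower, 0 higher) and, without replicate b, 1936 (1101 lower, 835 higher). Array weights gave 2428 (1210 lower, 1218 higher), in a fit that stopped before it converged, and a fold change of at least 1.5 gave 254 (122 lower, 132 higher). Quantile normalization gave 6 changes between days 9 and 5. Leaving out day 5 control replicate b, tried after seeing the data, gave 575 probes at day 9 and 0 changes between days 9 and 5, and leaving out both replicates b gave 1108 (683 lower, 425 higher) and 12. In every alternative the calls shared with the reported fit had the same direction. Same-letter deviations correlated by 0.42, 0.13 and -0.20, so the letters were not taken to pair the arrays. The replicate block by letter gave 805 probes and the block within a day 1017, against 704. All 30 named genes kept their sign in 21 alternatives. In many of these the rule that chose the genes had fixed the sign, since the arrays of the groups do not overlap. This holds, in Z-transformed fits, for each array left out, the day 9 arrays alone, array weights and replicate blocks. The sign there is not separate evidence. The calls lost were all 30 with the 6 arrays alone, Gja1, Tmem263, Pcp4, Gfap, Aldoc, Pip4p2, Igfbp2 and B2m with median centring, Nnat in 8 alternatives and Flrt3 also without CHD5 shRNA replicate c. The cause was not tested.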
